A study of Mus musculus with 24 samples.

Results

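The genes described here are 6 of the type 2 helper T cell (Th2) programme: the cytokine genes Il4, Il5 and Il13, which lie together in the Th2 cytokine locus on mouse chromosome 11, and Gata3, Stat6 and Il4ra. All probe sets to which the platform table gives 1 of these symbols and no other were taken, which gave 9 of the 34945 probe sets with a single symbol. Each gene was read from the probe set with the highest mean, 6 genes of 18193 in all. RNA came from CD4+ T cells of C57BL/6 mice with the 2D2 TCR transgene, a T cell receptor against a myelin antigen. The cells of every group were primed under Th1 conditions on anti-CD3 and anti-CD28 for 48 h and expanded for 2 more days, with the solvent DMSO, the control compound Control-768, or the BET bromodomain inhibitor I-BET-762 at 0.25 or 0.5 µM. RNA was taken from resting cells or from cells restimulated for 4 h with the same antibodies (activated cells), which gave 8 groups of 3 arrays. The concentration of Control-768, and whether compounds were present at restimulation, are not given in the sources used here.

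IL-4 binds a receptor that contains the chain encoded by Il4ra, and the receptor activates the transcription factor STAT6. STAT6 induces Gata3, the master transcription factor of Th2 cells, and GATA3 opens the Th2 cytokine locus, where Il4 and Il13 lie side by side and Il5 lies beyond the DNA repair gene Rad50. IL-4 directs B cells to class switching, IL-13 acts on epithelium and mucus production, and IL-5 supports eosinophils. In Th1 cells the factor T-bet, encoded by Tbx21, opposes GATA3 and the locus is normally kept silent.

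The 250 bases before the annotated start of the 3 cytokine genes and of Gata3 are shown because these are the promoters of the genes the results turn on (RefSeq, GRCm38.p6, 5′ to 3′). Capitals mark GATA hexamers (GATAA preceded by A or T, with G also taken as its last base) and the core GGAAAA of the NFAT site, each on either strand, and none of the marked runs overlap. The arrays carry no coordinates, so the positions are those of the sequence table.
Il13 (chr11:53634703-53634952, minus strand): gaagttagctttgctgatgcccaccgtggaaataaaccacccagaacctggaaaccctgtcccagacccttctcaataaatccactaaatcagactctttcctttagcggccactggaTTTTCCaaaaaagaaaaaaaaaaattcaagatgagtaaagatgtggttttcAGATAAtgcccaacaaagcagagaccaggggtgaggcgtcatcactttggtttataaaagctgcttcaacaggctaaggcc
Il4 (chr11:53618666-53618915, minus strand): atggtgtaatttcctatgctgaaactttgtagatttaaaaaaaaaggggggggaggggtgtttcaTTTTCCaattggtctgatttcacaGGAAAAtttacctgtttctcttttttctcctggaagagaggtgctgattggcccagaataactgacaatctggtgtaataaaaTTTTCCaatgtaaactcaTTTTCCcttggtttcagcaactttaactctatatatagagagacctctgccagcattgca
Il5 (chr11:53720544-53720793, plus strand): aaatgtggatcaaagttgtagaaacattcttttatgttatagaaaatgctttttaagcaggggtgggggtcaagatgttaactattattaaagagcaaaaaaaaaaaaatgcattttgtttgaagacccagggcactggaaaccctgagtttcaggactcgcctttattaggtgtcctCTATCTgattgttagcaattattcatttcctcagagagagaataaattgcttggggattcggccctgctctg
Gata3 (chr2:9878601-9878850, minus strand): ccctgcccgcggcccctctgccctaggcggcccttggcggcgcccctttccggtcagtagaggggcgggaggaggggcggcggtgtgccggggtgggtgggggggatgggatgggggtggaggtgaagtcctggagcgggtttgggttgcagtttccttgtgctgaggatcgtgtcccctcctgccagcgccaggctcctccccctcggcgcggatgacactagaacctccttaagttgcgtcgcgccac
The Il13 window held 1 GATA hexamer and 1 NFAT core, the Il4 window 4 NFAT cores and no GATA hexamer, and the Il5 window 1 GATA hexamer. Neither word was found in the Gata3 window. Of 32851 promoter windows of the same 250 bases, 26.5% held a GATA hexamer and 20.4% an NFAT core. A palindromic STAT6 motif, searched as well, was found in the Il4 window, where it overlapped an NFAT core, and in 5.85% of all windows. The sequence table holds 2 starts for Il4, and the window of the other (chr11:53617339-53617588, not shown) held 1 GATA hexamer and no NFAT core. Such matches describe the letters of these windows only.

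The arrays were on a common scale, with medians between 37.4 and 44.4 intensity units and replicate correlations of 0.976 to 0.994 on the log2 scale. All 9 measured CD4 T cell markers and all 10 measured Th1 markers had mean intensities of at least 32, among them Cd3d at 6981 and Tbx21 at 2654. Mast cells, basophils and eosinophils are other sources of IL-4 and IL-13, and most of their markers were dim. Of the 9 measured mast cell and basophil markers 1, Tpsb2, had a mean of at least 32 (44.9, from 28.9 to 61.4 over the arrays). The means of the other 8 ran from 3.97 for Mcpt4 to 23.3 for Mcpt8, with Cpa3 at 10.7, Fcer1a at 16.5 and Hdc at 20.2, the last with a highest value of 47.6. The summed intensity of the 9 measured mast cell and basophil markers was 141 to 204 on control arrays and 158 to 221 on I-BET-762 arrays. The 4 measured NK cell markers summed to 134 to 340 on activated control arrays and 56.0 to 119 on activated arrays with 0.5 µM I-BET-762. In resting cells they summed to 152 to 206 on control arrays and 76.9 to 149 with 0.5 µM, so that 0.5 µM did not overlap the controls in either state. With 0.25 µM they summed to 129 to 254 in resting and 156 to 173 in activated cells, which overlapped the controls. Of these 4 markers 2 had a mean of at least 32, and the brightest, Klrk1, ran from 17.8 to 227.5. The 3 measured eosinophil markers (Prg2, Epx and Ccr3), none with a mean of at least 32, summed on activated arrays to 28.5 to 49.6 with DMSO, 30.5 to 80.5 with Control-768 and 61.4 to 74.6 with 0.5 µM. The CD4 T cell markers summed to 35312 to 38827 on activated control arrays and to 40446 to 44344 on activated arrays with 0.5 µM. In resting cells they summed to 36024 to 38855 on control arrays and to 38524 to 46965 with 0.5 µM. The Th1 markers summed to 22047 on resting array 3 of 0.5 µM and to 12388 to 16485 on the other resting arrays. The 2 measured CD8 T cell markers, Cd8a and Cd8b1, had means of 81.9 and 553. On resting arrays they summed to 412 to 601 with the controls and 458 to 632 with I-BET-762. On activated arrays the sums were 613 to 907 and 530 to 957. The part of these marker levels in the results was not tested. In populations of cells, more cells that express a gene cannot be told apart from more RNA per cell.

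The replicate number mattered for these genes and is given beside every result. Arrays of one state with the same number deviated together from their group means in all 36 pairs, so the number was taken as a pairing within each state. The deviations of arrays of one state with other numbers also correlated above 0.1 in 14 of 72 pairs. The arrays numbered 3 held the highest Gata3 value in all 8 groups, and the highest Il13, Il4 and Il5 values in all 4 activated groups. Among all genes, 6.37% were highest on the arrays numbered 3 in all 4 resting groups and 8.26% in all 4 activated groups. The test without pairing treats this spread as error, and the test with the replicate block, in which the number is a covariate within each state, removes it. The test without the block was the planned main test, and the block was an alternative to it.

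Gata3 rose with 0.5 µM I-BET-762 in both states in the paired test. In resting cells the values on arrays 1, 2 and 3 were 105, 136 and 402 with DMSO and 120.0, 115 and 363 with Control-768. They were 229, 159 and 528 with 0.25 µM and 493, 292 and 1374 with 0.5 µM I-BET-762. Within each number both controls lay below 0.25 µM and 0.25 µM below 0.5 µM, while the groups overlapped because array 3 was high throughout. In activated cells Gata3 stood at 66.3, 99.1 and 195 with DMSO, and at 53.5, 80.7 and 174 with Control-768. It stood at 108, 153 and 361 with 0.25 µM, and at 197, 212 and 521 with 0.5 µM. The same order held in every number, and here the arrays with 0.5 µM all lay above those with Control-768. Both controls stayed below 0.25 µM and 0.25 µM below 0.5 µM in all 6 sets of arrays for 95 of 18193 genes (0.522%).

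Against Control-768, 0.5 µM I-BET-762 raised Gata3 by 1.67 ± 0.16 log2 (SE) in resting and 1.45 ± 0.16 in activated cells with the replicate block (adjusted p = 6.6e-06 and 3.9e-05). The changes within the numbers were 1.91, 1.24 and 1.87 in resting cells and 1.62, 1.23 and 1.50 in activated cells, so that 3 of 3 numbers were higher in each. Without the block the standard error was 0.64 and neither change passed the threshold of an adjusted p of 0.05 (0.293 and 0.553). With 0.25 µM the change was 0.87 ± 0.16 in activated cells (adjusted p = 0.0190 with the block, 1 without). In resting cells it was 0.60 ± 0.16 and did not pass (adjusted p = 0.134 with the block). Leaving out any 1 of the 6 activated arrays behind the 0.25 µM change ended that call (adjusted p between 0.0796 and 0.126). The calls at 0.5 µM held in all 19 alternatives run with the block (adjusted p up to 0.00468 in resting and 0.0118 in activated cells).

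The step from 0.25 to 0.5 µM was 1.07 ± 0.16 log2 for Gata3 in resting cells (adjusted p = 0.00279 with the block), a call that was lost without the arrays numbered 1 (0.102) or 3 (0.145). In activated cells it was 0.57 ± 0.16 (adjusted p = 0.218). With both concentrations set against both controls, Gata3 rose by 1.10 ± 0.11 in resting and 1.05 ± 0.11 in activated cells (adjusted p = 9.7e-06 and 2.3e-05 with the block, 0.354 and 0.452 without). The difference between the states was -0.05 ± 0.16, with a 95% interval from -0.38 to 0.28, and was not called. Without the arrays numbered 3, with 2 arrays a group and no block, the changes at 0.5 µM were 1.57 in resting and 1.42 in activated cells (adjusted p = 0.00888 and 0.0190), where 4.05% and 2.74% of all genes were called. Over both concentrations they were 1.09 and 0.998 (adjusted p = 0.00784 and 0.0159), where 5.58% and 4.29% were called.

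**Figure D1:**
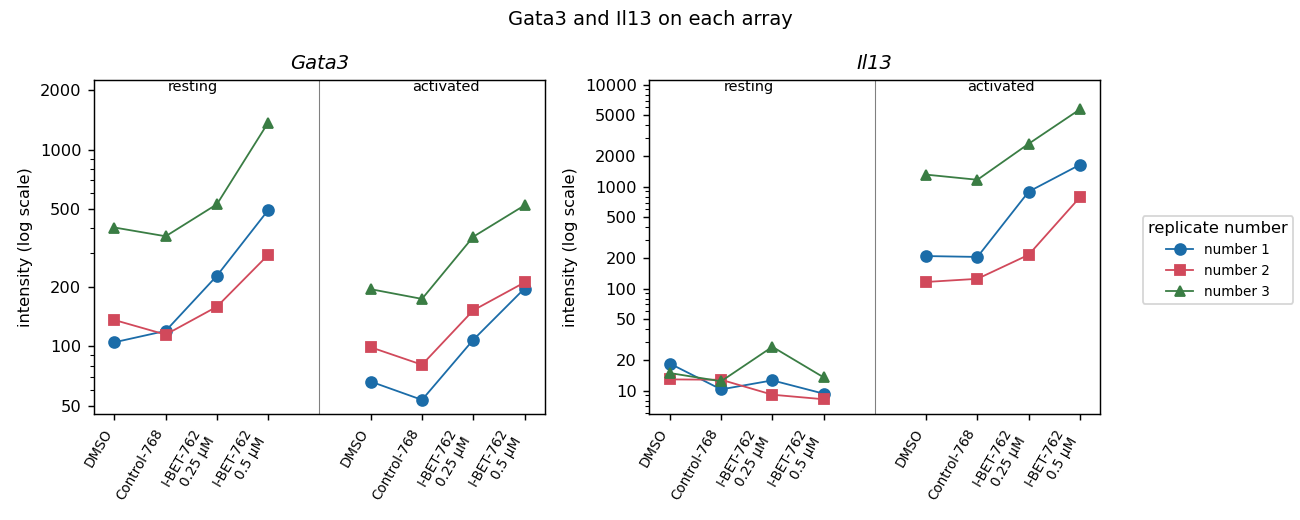
Intensity of Gata3 (left) and Il13 (right) on each of the 24 arrays, on a log axis, with the 4 compounds of resting and of activated cells on the horizontal axis; each symbol is 1 array and lines join arrays of the same replicate number within a state. Gata3 climbed with I-BET-762 in every number of both states, at 2.54 to 4.11 times Control-768 with 0.5 µM. Its values over all 24 arrays ran from 53.5 to 1374. Il13 climbed in every number of activated cells, at 4.91 to 8.02 times Control-768 with 0.5 µM. Its values over all activated arrays ran from 116 to 5738, while resting arrays lay at 8.24 to 26.9.

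Il13 rose with restimulation under all 4 compounds, and in restimulated cells it rose further with I-BET-762 in the paired test. Resting cells gave 8.24 to 26.9 on all 12 arrays. Activated cells gave 209, 116 and 1314 on arrays 1, 2 and 3 with DMSO and 205, 125 and 1169.5 with Control-768. With 0.25 µM I-BET-762 the values were 895, 215 and 2638, and with 0.5 µM they were 1643, 789 and 5738. Every activated array was above every resting array. Among activated arrays both controls lay below 0.25 µM and 0.25 µM below 0.5 µM in each number, although the control arrays numbered 3 exceeded some I-BET-762 arrays of the other numbers. This order held in 3 of 3 activated numbers for 277 of 18193 genes (1.52%).

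At 0.5 µM, Il13 in activated cells was 2.57 ± 0.21 log2 above Control-768 with the replicate block (adjusted p = 3.4e-06), against 2.57 ± 0.87 without it (adjusted p = 0.299). The changes within the numbers were 2.91, 2.51 and 2.28, and as ratios of intensities 8.02, 6.31 and 4.91. This call held in all 19 alternatives run with the block (adjusted p up to 0.00208). Without the arrays numbered 3 and without block the change was 2.71 (adjusted p = 0.0218). With both concentrations against both controls Il13 rose by 1.92 ± 0.15 (adjusted p = 1.5e-06 with the block, 0.193 without, and 0.0463 without block and without activated array 3 of DMSO). At 0.25 µM the change was 1.31 ± 0.21 (adjusted p = 0.0116 with the block, 1 without), with 2.04, 0.71 and 1.16 in the numbers. The step between the concentrations was 1.26 ± 0.21 (adjusted p = 0.0232 with the block). The call at 0.25 µM was lost without array 1 of either group (adjusted p = 0.106 without the Control-768 array and 0.0708 without the I-BET-762 array), without all arrays of any 1 number (between 0.0846 and 0.501) and with a pseudocount of 1 (0.0824). The call for the step was lost without array 1 or 2 of 0.5 µM or array 2 or 3 of 0.25 µM (adjusted p between 0.0947 and 0.183), without all arrays of any 1 number (between 0.0895 and 0.615) and with a pseudocount of 1 (0.137).

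In resting cells the change of Il13 at 0.5 µM was -0.08 ± 0.21 log2 with the block, with a 95% interval from -0.53 to 0.37, at intensities where the added constant of 16 compresses differences. The change at 0.5 µM was larger in activated than in resting cells by 2.65 ± 0.30 (adjusted p = 0.00359 with the block, 0.9999 without). With both concentrations against both controls the difference between the states was 1.96 ± 0.21 (adjusted p = 0.00199 with the block). Genes called for these interactions with the block made up 0.0165% and 0.0824% of all genes, and 0% without it. For 0.25 µM the interaction gave 0% with or without the block. At an unadjusted p under 0.05, limma without the block gave 650, 427 and 699 genes for the interactions of 0.5 µM, 0.25 µM and both concentrations, and 678 for 0.25 µM with it. The first of these calls was lost with a pseudocount of 1 (2.84, adjusted p = 0.0579). Leaving out all arrays of any 1 number ended both calls (adjusted p between 0.0571 and 0.411). A replicate block over both states gave neither (adjusted p = 0.834 and 0.647). The resting values are so dim that a change there may not be measurable, which limits what a difference between the states can show. Il4 was called for both interactions without activated array 3 of 0.5 µM (1.74 and 1.18, adjusted p = 0.0186 and 0.0157 with the block). Resting Il4 was dim as well, from 16.5 to 46.5, so the same limit holds for it.

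Restimulation raised Il13 by 3.44 ± 0.87 log2 under DMSO and 3.58 ± 0.87 under Control-768 (adjusted p = 0.00779 and 0.00606 in the test without block). It raised Il13 by 4.71 ± 0.87 under 0.25 µM and 6.23 ± 0.87 under 0.5 µM I-BET-762 (adjusted p = 0.00144 and 5.4e-05). The resting arrays lay at 8.24 to 26.9, so the sizes of these changes depend on the constant of 16 added before the log2 and are not measured folds. With a constant of 1 they were 4.29, 4.61, 5.67 and 7.45, and with 64 they were 2.36, 2.39, 3.49 and 4.78, all of which passed the threshold. Of the 6 genes, Il13 was the 1 called under DMSO, Control-768 and 0.25 µM, and Il13 and Il4 were called under 0.5 µM. Genes called for restimulation made up 20.8%, 20%, 14.4% and 23.2% of all genes under DMSO, Control-768, 0.25 µM and 0.5 µM. The call for Il13 was lost under DMSO without activated array 3 (2.46, adjusted p = 0.0633) and under Control-768 without its activated array 3 (2.67, adjusted p = 0.0521).

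Il4 ran from 30.9 to 474 in activated cells and from 16.5 to 46.5 in resting cells, and its change with I-BET-762 did not pass the threshold in either test with all arrays. Activated arrays 1, 2 and 3 gave 39.6, 49.0 and 243 with DMSO and 30.9, 49.1 and 235 with Control-768. They gave 58.1, 81.6 and 474 with 0.25 µM and 88.0, 117 and 202 with 0.5 µM I-BET-762. Il4 was higher with 0.25 µM than with Control-768 in 3 of 3 numbers, whereas at 0.5 µM it was higher in numbers 1 and 2 and lower in number 3. In resting cells it lay between 24.1 and 46.5 with DMSO, Control-768 or 0.25 µM. With 0.5 µM the resting values were 19.2, 16.5 and 17.2, below every other resting array. Resting Il4 was thus dim, and the added constant of 16 compresses differences at such intensities. This limits what its resting changes, its restimulation changes and its differences between the states can show.

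In activated cells the change of Il4 against Control-768 was 0.74 ± 0.25 log2 at 0.25 µM and 0.66 ± 0.25 at 0.5 µM with the block (adjusted p = 0.417 and 0.214). Both concentrations against both controls gave 0.65 ± 0.18 (adjusted p = 0.0551 with the block, 0.786 without). That value lay close to the threshold, and it passed with dim genes left out (0.0356) or with arrays centred on their median (0.0283). Array 3 of activated cells with 0.5 µM weighed on it most: without it the change at 0.5 µM was 1.12 (adjusted p = 0.00279 with the block) and the change over both concentrations 0.88 (adjusted p = 0.000419). Without all arrays numbered 3 the changes were 1.09 and 0.80, also without block (adjusted p = 0.00950 and 0.00604). In resting cells Il4 differed by -0.62 ± 0.25 at 0.5 µM (adjusted p = 0.199 with the block, and -0.47 with 0.0189 without the arrays numbered 3). Restimulation raised Il4 by 2.10 ± 0.63 under 0.5 µM (adjusted p = 0.0196 without block), where the resting level was lowest. Under Control-768 the change of Il4 was 0.82 ± 0.63 (adjusted p = 0.422). The call under 0.5 µM was lost without resting array 3 (adjusted p = 0.0528), without activated array 3 (0.1005) and with a pseudocount of 64 (1.25, adjusted p = 0.0655).

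Il5, which is transcribed from the same locus, stayed dim and showed no call. Its highest value on any array was 52.7, with DMSO in activated cells, and its lowest was 10.8, with 0.5 µM in resting cells. On activated arrays it gave 32.2, 14.02 and 48.6 with Control-768 and 19.5, 19.2 and 21.2 with 0.5 µM I-BET-762. The groups overlapped, and the changes within the numbers had both signs (-0.44, 0.23 and -0.80). At 0.5 µM the change was -0.34 ± 0.22 log2 with the block, with a 95% interval from -0.80 to 0.13. At these intensities a moderate change in Il5 was not detectable.

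**Figure D2:**
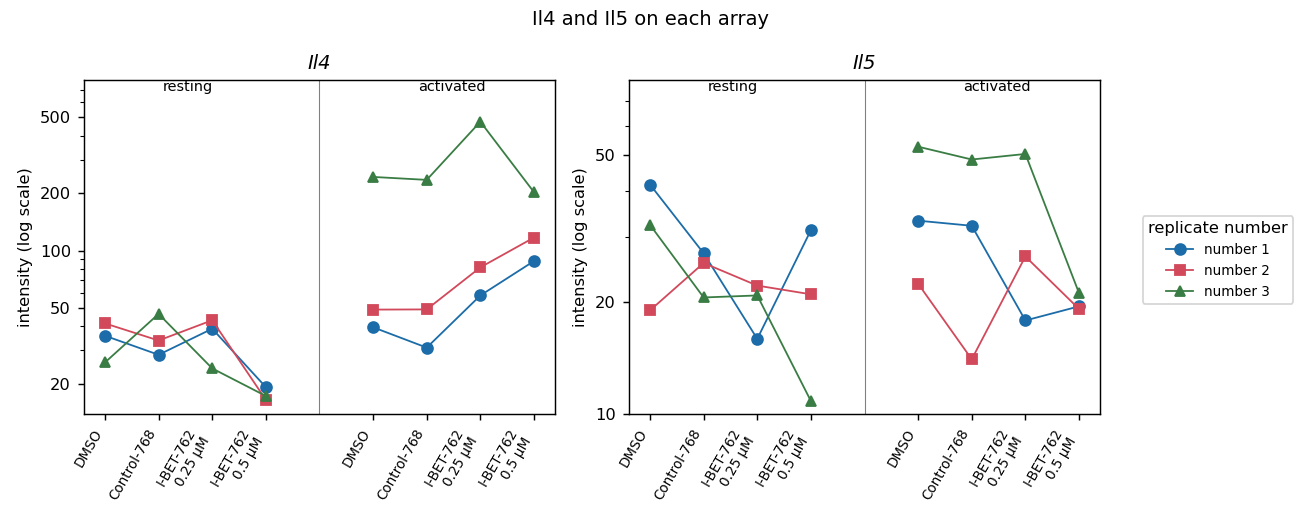
Intensity of Il4 (left) and Il5 (right) on each array, on log axes, arranged by state and compound as single symbols with lines joining arrays of the same replicate number within a state. Il4 in activated cells climbed to 0.5 µM in numbers 1 and 2 and fell back from 474 to 202 in number 3, and Il5 stayed between 10.8 and 52.7.

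The receptor chain and its transcription factor were bright and nearly level over the 8 groups. Stat6 ran from 714 to 1243 over the 24 arrays, with group means between 798 and 1020.5. Resting arrays with Control-768 gave 1094, 912 and 1051, and those with 0.25 µM I-BET-762 gave 799, 809 and 785, all lower. With 0.5 µM they gave 803, 714 and 1243, so array 3 stood above the controls. The change of Stat6 in resting cells over both concentrations was -0.26 ± 0.10 log2 (adjusted p = 0.143 with the block, 0.429 without). Without that resting array 3 of 0.5 µM it was -0.38 (adjusted p = 0.00148 with the block, 0.0475 without). In activated cells the change was -0.02 ± 0.10, with a 95% interval from -0.22 to 0.18.

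Il4ra ran from 1097 to 1958 over the arrays, with group means from 1505 to 1702. Its level was lowest on array 3 in each of the 8 groups, the opposite of Gata3. On activated arrays it gave 1929, 1896 and 1281 with Control-768 and 1527, 1684 and 1304 with 0.5 µM I-BET-762. These groups overlapped. At 0.5 µM the change of Il4ra was -0.16 ± 0.10 log2 in activated and -0.07 ± 0.10 in resting cells with the block, with 95% intervals from -0.37 to 0.05 and from -0.28 to 0.13. The other probe sets, 2 for Il4ra and 1 for Stat6, gave no call in any of the 17 comparisons when all 34945 probe sets were fitted without the block. That fit called no member for a comparison of compounds, Gata3 and Il13 included, so its lack of calls does not show level genes. The changes of these other probe sets at 0.5 µM in activated cells lay between -0.08 and -0.01 log2. Of those for Il4ra, 1 was dim, with a mean of 32.8.

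**Figure D3:**
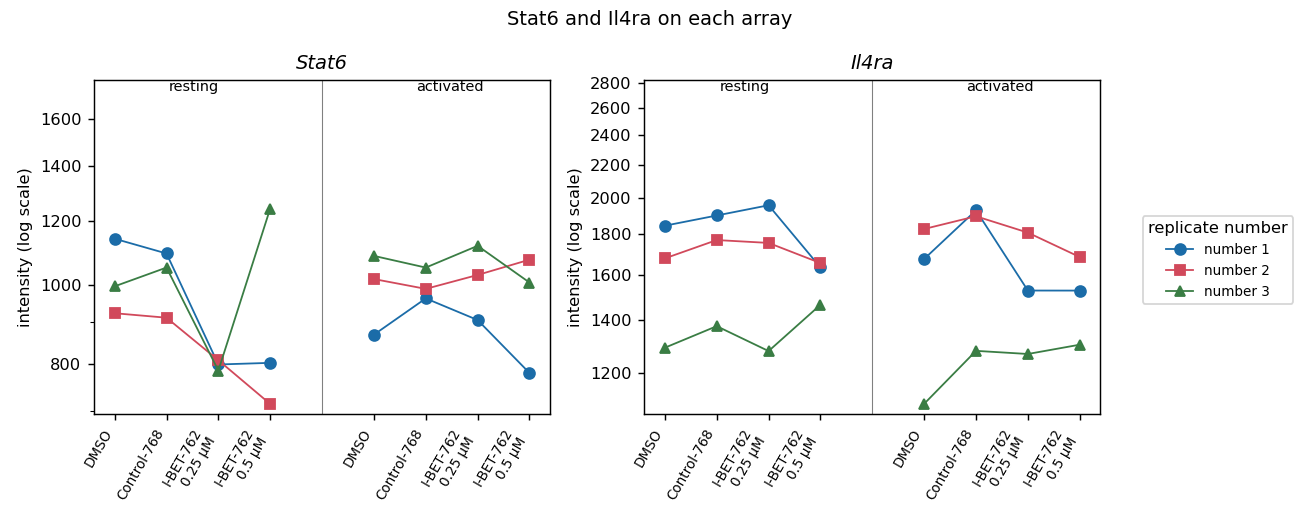
Intensity of Stat6 (left) and Il4ra (right) on each array, on log axes, arranged by state and compound with lines joining arrays of the same replicate number within a state. Stat6 stayed between 714 and 1243 and Il4ra between 1097 and 1958, and array 3 was lowest for Il4ra in every group.

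Over the 6 genes together, limma without the block called 0 with 0.5 µM I-BET-762 in resting and 0 in activated cells, where 1.41% and 0.726% of all genes were called. At an unadjusted p under 0.05 the counts were 1 (Gata3) and 2 (Gata3 and Il13), beside 1955 and 1445 of all 18193 genes. With the block, 1 of 6 was called in resting cells and 2 of 6 in activated cells, where 5.52% and 3.35% of all genes were called. At 0.25 µM the block gave 0 of 6 in resting cells (2 at an unadjusted p under 0.05, beside 1390 genes) and 2 of 6 in activated cells, beside 0.533% and 0.39% of all genes; without the block it was 0 of 6 in each, beside 0.066% and 0.0715%. For the step between the concentrations it gave 1 of 6 in each state, beside 1.14% and 0.198%, and without the block 0 of 6, beside 0.066% and 0.011%. For both concentrations against both controls it gave 1 of 6 in resting and 2 of 6 in activated cells, beside 5.67% and 4.15%, and without the block 0 of 6, beside 1.85% and 1.2%. At an unadjusted p under 0.05 without the block, the members numbered 0 in each state at 0.25 µM (759 genes in resting and 729 in activated cells) and for the step (1310 and 688 genes), and 2 in each state for both concentrations (1848 and 1664 genes). The median change of the 6 genes at 0.5 µM was -0.12 log2 in resting and 0.29 in activated cells, and that of all genes -0.0037 and 0.0010. These comparisons share their control arrays.

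Control-768 and DMSO gave no call among the 6 genes in limma, with or without the block, and 0% of all genes were called in either state. At an unadjusted p under 0.05, 0 of 6 members stood out in either state, and 428 genes in resting and 300 in activated cells (555 and 446 with the block). With the block the difference of Gata3 was -0.06 ± 0.16 log2 in resting and -0.21 ± 0.16 in activated cells. That of Il13 in activated cells was -0.03 ± 0.21, with a 95% interval from -0.48 to 0.42. With DMSO in place of Control-768, the activated Gata3 change at 0.25 µM was 0.66 and no longer passed (adjusted p = 0.103 with the block).

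**Figure D4:**
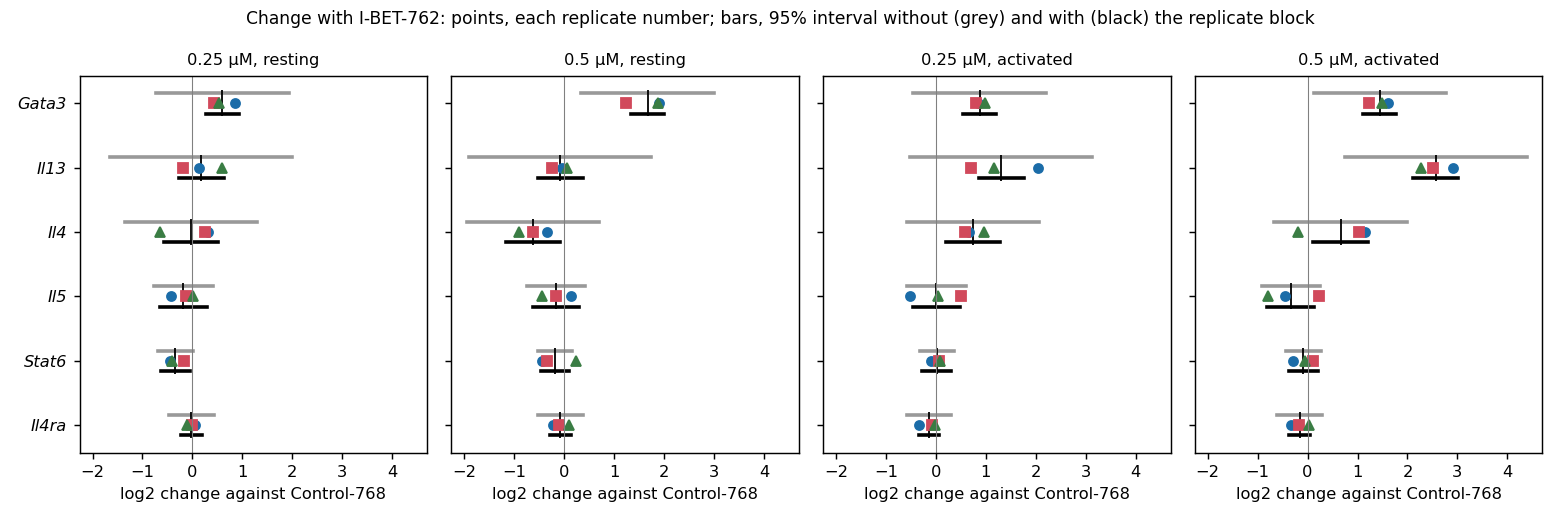
Log2 change of the 6 genes against Control-768 at 0.25 and 0.5 µM I-BET-762 in resting and activated cells; coloured symbols are the 3 replicate numbers, black ticks the estimates, grey bars the 95% intervals without and black bars those with the replicate block. The 3 symbols of Gata3 sit to the right of 0 in every panel, the 3 of Il13 do so in the activated panels (2.28 to 2.91 at 0.5 µM) and straddle 0 in the resting ones, and those of Stat6 and Il4ra lie between -0.45 and 0.24, with all 3 of Stat6 left of 0 at 0.25 µM in resting cells and all 3 of Il4ra left of 0 at 0.25 µM in activated cells.

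None of the genes around Il4, Il13 and Il5 was called as higher with I-BET-762. Of 11 neighbours on the chromosome, 0 were higher and 5 lower with both concentrations against both controls in activated cells with the block, where 4.15% of all genes were called. Without the block 1 was lower. The median change of the 11 was -0.65 log2, and that of all genes 0.00. The 5 were Acsl6, Csf2, Il3, P4ha2 and Irf1, of which the last pair was named after the values were seen. Acsl6, an acyl-CoA synthetase gene next to Il3, fell by 2.27 ± 0.21 log2 with the block (adjusted p = 6.4e-06, and 0.00928 without). Csf2, which encodes GM-CSF, averaged 1664 ± 2189 (SD, n = 3) with Control-768 and 357 ± 333 with 0.5 µM, and its change over both concentrations was -1.46 ± 0.24 (adjusted p = 0.00148 with the block, 0.514 without). Il3, a haematopoietic growth factor gene, changed by -1.82 ± 0.44 (adjusted p = 0.0255 with the block, 0.409 without). Irf1, which lies beside Il5 and encodes an interferon-induced transcription factor, changed by -0.83 ± 0.14 (adjusted p = 0.00166 with the block, 0.397 without).

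Rad50 lies between Il13 and Il5, and its change was 0.01 ± 0.07 log2 in activated and -0.10 ± 0.07 in resting cells, with 95% intervals from -0.14 to 0.16 and from -0.25 to 0.05. Kif3a, on the far side of Il4, changed by 0.22 ± 0.09 in activated cells (adjusted p = 0.218 with the block). In resting cells 3 of the 11 neighbours were lower with the block, where 5.67% of all genes were called: Acsl6, Il3 and Septin8, the last named after its values were seen, and 0 were higher. Restimulation under Control-768 raised Csf2 by 4.22 ± 0.95 and Il3 by 4.01 ± 1.05 and lowered Rad50 by 0.80 ± 0.14 (adjusted p = 0.00341, 0.00996 and 0.000415 without block).

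**Figure D5:**
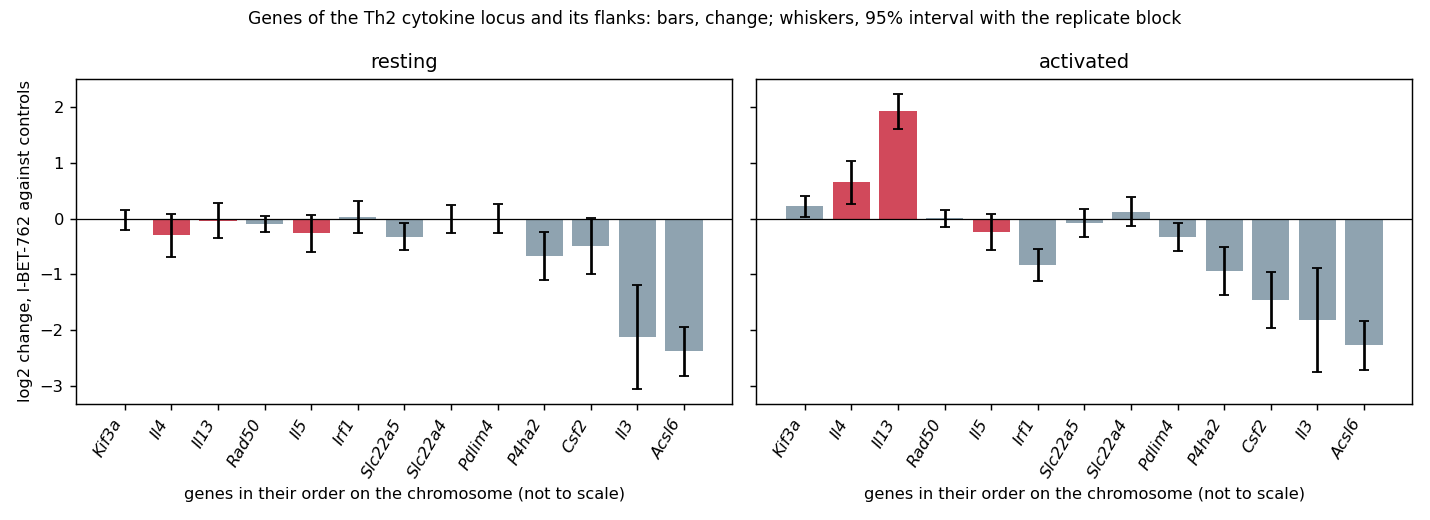
Log2 change with both concentrations of I-BET-762 against both controls for the measured genes of the list from Kif3a to Acsl6, in their order on the chromosome (RefSeq, GRCm38.p6) and not to scale, in resting (left) and activated (right) cells; bars are the change, whiskers the 95% interval with the replicate block, and red marks Il4, Il13 and Il5. In activated cells Il13 stands at 1.92 and Acsl6 at -2.27, with Rad50 near 0.

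Known activators of Th2 genes moved in both directions. Of 17 measured, 4 were higher and 3 lower in resting cells at 0.5 µM with the block (1 and 2 without), and 2 were higher and 1 lower in activated cells (0 and 1 without). Of all genes, 5.52% were called in resting and 3.35% in activated cells with the block, and 1.41% and 0.726% without. The median changes were 0.13 and 0.04 log2. Maf, whose product c-MAF drives Il4 transcription, fell in both states even without the block. It averaged 3796 ± 1499 with Control-768 and 1071 ± 803 with 0.5 µM in resting cells, a change of -1.99 ± 0.38 (adjusted p = 0.00710). In activated cells it averaged 4025 ± 149 and 615 ± 98.3, a change of -2.69 ± 0.38 (adjusted p = 0.000587). Rbpj, the DNA-binding factor of Notch signalling, fell by 0.90 ± 0.13 in resting cells (adjusted p = 0.000475). Batf, an AP-1 factor, rose by 0.80 ± 0.19 there (adjusted p = 0.0426).

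Of 14 measured repressors of Th2 genes, 2 were higher and 1 lower in resting cells at 0.5 µM with the block (1 and 1 without), and 1 was higher and 2 lower in activated cells (0 and 0 without), beside the same 5.52% and 3.35% of all genes with the block and 1.41% and 0.726% without. Tbx21, the gene of T-bet, rose from 1154 to 2284 in resting cells, by 0.97 ± 0.14 log2 (adjusted p = 0.000329 without block). Hlx, a homeobox gene that acts with T-bet, fell by 1.38 ± 0.30 (adjusted p = 0.0201). Eomes, a T-box relative, changed by -1.36 ± 0.23 in activated cells (adjusted p = 0.00292 with the block, 0.0723 without). In resting cells Gata3 (with the block) and Tbx21 were both higher with 0.5 µM I-BET-762.

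Signalling below the IL-4 and IL-13 receptors, with 15 genes measured, gave no call without the block at 0.5 µM in either state, and with it 4 higher in resting and 1 lower in activated cells, where 5.52% and 3.35% of all genes were called. By the smallest unadjusted p the gene to name was Socs3, a feedback inhibitor of JAK and STAT signalling, at 0.97 ± 0.16 log2 in resting cells (adjusted p = 0.00141 with the block, 0.104 without). Irs2, an adaptor of the IL-4 receptor, was the 1 that was lower in activated cells, at -0.74 ± 0.19 (adjusted p = 0.0440 with the block). Among 15 other products and receptors of Th2 cells, Il10, an anti-inflammatory cytokine gene, rose by 2.84 ± 0.68 in resting cells at 0.5 µM, from 153 to 1254 (adjusted p = 0.0402 without block). Il24, another member of the IL-10 family, fell by 1.64 ± 0.36 in resting and 2.12 ± 0.36 in activated cells (adjusted p = 0.0198 and 0.00326). Ccr3, an eosinophil and Th2 chemokine receptor gene, rose by 0.65 ± 0.15 in activated cells over both concentrations (adjusted p = 0.0309 without block), at activated group means between 5.35 and 32.7; it is also 1 of the 3 eosinophil markers summed above. In that list 1 gene was higher and 4 lower in resting cells and 2 were higher and 2 lower in activated cells with the block, beside the same shares of all genes.

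At 0.25 µM none of the 5 lists held a call without the block. Maf differed by -1.42 ± 0.17 log2 in resting and -1.82 ± 0.17 in activated cells with the block (adjusted p = 0.000707 and 0.00014, and 0.352 and 0.107 without). Acsl6 differed by -1.76 ± 0.29 and -1.64 ± 0.29 (adjusted p = 0.0114 and 0.0190 with the block). Il24 stood at -1.11 and -1.26 and Tbx21, in resting cells, at 0.46, and none of these passed with the block (adjusted p = 0.140, 0.0984 and 0.0902).

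Restimulation itself moved genes of these lists under Control-768, where 20% of all genes were called without block. Of the 17 activators 7 were higher and 1 lower, among them Stat5a, which carries IL-2 signals, at 2.88 ± 0.25 log2, Batf at 2.08 ± 0.19, the zinc finger repressor gene Gfi1 at 1.05 ± 0.13 and the receptor gene Notch2 at 1.23 ± 0.26. Maf stood at 0.15 ± 0.38 (adjusted p = 0.849). From the other lists only called genes with the smallest p are named, up to 4 of each, and no count is set beside the 20%. Among repressors Tbx21 rose by 1.64 ± 0.14, Eomes by 1.92 ± 0.34, the DNA methyltransferase gene Dnmt3a by 1.81 ± 0.36 and Riox2 by 1.07 ± 0.14. The kinase gene Jak2 rose by 1.70 ± 0.29 and the phosphatase gene Ptpn6 fell by 0.72 ± 0.14. Il24 rose by 4.47 ± 0.36, Il10 by 4.18 ± 0.68 and the chemokine receptor gene Ccr4 by 1.30 ± 0.38. All of these but Maf had adjusted p of at most 0.0190.

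The profiles most like those of the members over the 24 arrays were found among 9363 genes with a mean intensity of at least 64. Nearest to Il13 were Ptger2, a prostaglandin E2 receptor gene (Pearson's r = 0.968), Eed (0.965) and Ubtd2 (0.960). Nearest to Gata3 were Sytl2 (0.936), Hopx (0.921) and Dnajc15 (0.896). Il4 was nearest to Mapre2 (0.919), and Il4ra to Inpp5b (0.910). For Il5 and Stat6 no gene exceeded 0.771 and 0.715. The arrays share state, compound and replicate number, so these values describe a likeness of profiles and no more.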

How the data were processed

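Intensities of 45101 probe sets were deposited by the authors as 1 linear value per probe set and array (24 arrays); the sources used here do not give how they were summarised and normalised. Values were transformed as log2(intensity + 16). Each of the 18193 genes was read from the single-symbol probe set with the highest mean on the log2 scale, a reading of that rule kept after the mean of intensities had been run as well; the latter picks another probe set for 82 genes, none of them a member, and calls 136 in place of 132 genes at 0.5 µM in activated cells. Without the block, all arrays entered 1 limma model (limma 3.58.1, R 4.3.3) with 8 group means, 16 residual and 3.59 prior degrees of freedom. The fit with the block added the replicate number within each state to these group means. It had fewer residual degrees of freedom and its own prior. The p-values were two-sided and adjusted over all genes (Benjamini-Hochberg), with a threshold of 0.05. Errors of log2 changes are SE.

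Replicate numbers in the labels paired arrays within a state: deviations of same-numbered arrays correlated at 0.154 to 0.697 in 36 of 36 pairs. Within a state 14 of 72 pairs with other numbers lay above 0.1, up to 0.298, which overlaps the range of same-numbered pairs. Across states 16 of 48 same-numbered pairs lay above 0.1, and 2 of 96 pairs with other numbers. The planned main test had no covariate. The number was added as a block within each state as an alternative to it. Whether replicates are separate mice or cultures is not stated, so p-values measure the spread between these samples. The model was also run on simulated data with independent noise per array, which lacks the correlation of same-numbered arrays seen here. The simulated replicate effect was shared by both states, and false calls with the block were not counted. The simulation therefore does not show how often the block gives false calls in these data. Without the block, the median 95% interval reached 0.39 log2 to either side for 3 arrays against 3. The number of arrays limits precision.

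Members, gene lists and tests were chosen with earlier results of these data known. Named beside the members were Maf, up to 4 called genes of each list per comparison (otherwise the 1 with the smallest p) and the 3 nearest profiles. Pseudocounts, a filter on dim genes, normalization, probe set choice, the prior, the samples fitted and left-out arrays were varied. Listed genes with no single-symbol probe set were not analysed here.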

Additional observations from a re-analysis of the deposited data

Results flagged for a closer look

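The change of Il13 with I-BET-762 differed between the states by a test of that difference, the interaction term in limma with the replicate block within each state. At 0.5 µM against Control-768 the interaction was 2.65 ± 0.30 log2 (adjusted p = 0.00359). For both concentrations against both controls it was 1.96 ± 0.21 (adjusted p = 0.00199). In resting cells Il13 was between 8.24 and 26.9 on every array, so a change with the compound may not be measurable there and the size of the difference is not firm. Without the block both had an adjusted p of 0.9999, and with a block over both states 0.834 and 0.647. The state difference was not called for Il13 alone in every setting. Without activated array 3 of 0.5 µM, Il4 also had called interactions of 1.74 and 1.18 (adjusted p = 0.0186 and 0.0157). Without all arrays numbered 3, Il4 had 1.56 and 1.001 (adjusted p = 0.0145 and 0.0171) while those of Il13 were lost (adjusted p = 0.102 and 0.0571). Resting Il4, from 16.5 to 46.5, was dim too, so the sizes of its interactions are not firm either.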

How the results depend on the processing

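The calls rest on how the replicate number is used; 0 called values changed sign in any alternative. Without block, limma called 0 of the 6 genes in every comparison of compounds and in every interaction. Adding the replicate block within each state gave 1 in resting cells for 0.5 µM, for the step between concentrations and for both concentrations against both controls, 2 in activated cells for 0.5 µM, 0.25 µM and both concentrations, 1 for the activated step, and 1 for the interactions of state with 0.5 µM and with both concentrations. A replicate block over both states rests on a pairing across states that was weaker than within a state. Deviations correlated above 0.1 in 16 of 48 same-numbered pairs across states, against 2 of 96 pairs with other numbers. The share of all genes called with this block is not given here, so its counts have no background beside them. It gave 1, 1 and 1 for the same resting comparisons, and 2 and 2 for 0.5 µM and both concentrations in activated cells. For restimulation it gave 2 in place of 1 under DMSO, Control-768 and 0.25 µM, and 3 in place of 2 under 0.5 µM. It gave 0 for 0.25 µM and the step in activated cells and 0 for both interactions, so that the calls of the block within each state were lost for Gata3 (adjusted p = 0.130) and Il13 (0.898) at 0.25 µM, for Il13 at the step (0.841) and for the Il13 interactions (0.834 and 0.647). Under it Gata3 differed on restimulation by -0.65, -0.80 and -1.02 log2 under DMSO, Control-768 and 0.5 µM (adjusted p = 0.0253, 0.00741 and 0.000999), and Il4 by 1.59 under 0.25 µM (adjusted p = 0.0385). Without the arrays numbered 3 and without block the counts were 1 and 1 in resting and 3 and 3 in activated cells for 0.5 µM and both concentrations, 2 for restimulation under 0.25 µM, and 3 in place of 2 under 0.5 µM, where Gata3 was added (-0.85, adjusted p = 0.0493). A pseudocount of 64 left 1 of 2 for restimulation under 0.5 µM.

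The following alternatives kept the block and were chosen after seeing the data. A pseudocount of 1 gave 1 at 0.25 µM in activated cells, 0 for the activated step and 0 for the 0.5 µM interaction, and DMSO in place of Control-768 gave 1 at 0.25 µM in activated cells. Without the arrays numbered 1 the count was 0 for the step in resting cells, 0 for 0.25 µM and the step in activated cells and 0 for both interactions, and without those numbered 2 it was 0 for the last 4 of these. Without those numbered 3 it was 2 in resting cells for 0.5 µM (Gata3 and Il4) and both concentrations (Gata3 and Stat6). For 0.25 µM in activated cells it was 1, as Il4 was gained (0.62 log2, adjusted p = 0.0279). Gata3 and Il13 were lost there (0.187 and 0.0846). It was 0 for the step in activated cells. For the step in resting cells Il4 (-0.75, adjusted p = 0.0224) was called in place of Gata3 (0.145). In activated cells Il4 joined Gata3 and Il13 at 0.5 µM and both concentrations (adjusted p = 0.000643 and 0.000400). The share of all genes in this setting is not given here. Taking the probe set with the highest mean intensity, also added later, changed no call. Leaving out single arrays gave 0 to 1 calls without block for restimulation under DMSO and Control-768, 1 to 2 under 0.5 µM, and 0 to 1 for both concentrations in each state. With the block it gave 0 to 1 for 0.25 µM and the step in activated cells, 1 to 2 for 0.5 µM and both concentrations in resting cells and for both interactions, and 2 to 3 for 0.5 µM and both concentrations in activated cells. The share of all genes is not given here for single arrays left out, other pseudocounts, or arrays numbered 1 or 2 left out. Nor is it given for DMSO in place of Control-768, or for restimulation without the arrays numbered 3. Of 6 comparisons called with the block, Gata3 was called in every alternative in 4 and Il13 in 2. Resting Il13 (at most 26.9), resting Il4 (at most 46.5) and Il5 (at most 52.7) were dim, which limits what these arrays can show for them.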
